A study of Mus musculus with 8 samples.

Results

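A set of 6 genes that have been used as markers of reserve, or +4, stem cells of the intestinal crypt was examined: Bmi1, Hopx, Lrig1, Msi1, Tert and Mex3a. They were taken by name, as the probes whose gene name in the array annotation was the gene's symbol or an older alias (Hod for Hopx, 2700083E18Rik for Mex3a), which gave 8 probes for 6 genes among 27573 gene names. Expression was measured in mouse small intestine on 8 two-colour arrays, on which 2 RNAs labelled with different dyes are hybridised together, so that each array gives a ratio. In the first comparison, cells of Lgr5-EGFP-ires-CreERT2 mice, in which the Lgr5 promoter drives green fluorescent protein, were sorted into GFPhi and GFPlo fractions, in 2 sorts that each pooled 3 mice. In the second, intestinal epithelium of Ah-Cre/Ascl2floxed/floxed mice was set against that of Ah-Cre/Ascl2floxed/wt controls, which also carry Ah-Cre and 1 floxed copy, at 3 and 5 days after Cre was induced. There are thus 4 RNA pairs, and every pair was put on 2 arrays with the dyes swapped. Such a pair of arrays counts as 1 replicate, which leaves n = 2 RNA pairs per comparison. Neither the number of mice behind a deletion pair nor their age is given in the sources used here, and the GFPlo fraction still carries the reporter and comes from the same mice as GFPhi. Each RNA pair lay on its own slide, so slide and pair cannot be told apart.

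The +4 position lies just above the Paneth cells of the crypt base. Cells there have been described as a slowly dividing reserve that can replace the dividing Lgr5 stem cells after injury, although the RNA of several of the proposed markers has also been found throughout the crypt base. Ascl2 is a basic helix-loop-helix transcription factor of the Lgr5 stem cells. The comparisons ask which genes mark Lgr5-high cells and which genes depend on Ascl2.

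The labels were first checked on genes outside the marker set. Lgr5 had a log2 ratio of GFPhi over GFPlo of 2.10 in sort 1 and 2.56 in sort 2, and Ascl2 had a log2 ratio of deleted over control of -1.33 on day 3 and -1.53 on day 5. Olfm4, a gene of crypt base stem cells, had -2.12 and -2.33 on these days. The share of spots well above background in a channel was 35.5% to 44.6% on the sort arrays and 55.0% to 66.9% on the deletion arrays, so dim genes are measured less well in the sorts, and the number of arrays limits the precision throughout. Testing required a probe that stood well above background in 1 RNA of the comparison, or in both, on all 4 arrays. Of the markers, 5 met this in the sorts, all but Bmi1, and all 6 in the deletion.

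None of the markers passed the limma test at an adjusted p of 0.05 in either comparison, and neither did any other gene: 0% of 10460 genes were called in the sorts and 0% of 15871 in the deletion. At an unadjusted p under 0.05 the counts were 940 genes (8.99%) and 1485 genes (9.36%). This fit takes 1 spread from all 4 RNA pairs, and the spread includes the difference between the deletion days. Fitted on the sorts alone, 12.7% of genes (1326) were called, Lrig1 and Mex3a among them. That count rests on the replacement of outlying local backgrounds, a step added after the markers' values had been seen: with the background as deposited 77 genes were called and neither marker was. On simulated data this fit also called more unchanged genes than its threshold allows. Of the 5 markers tested in the sorts, 4 had a mean ratio above 0 and 1 below, where 51.4% of all genes were above and 48.6% below. The same 4 were higher in GFPhi on all 4 arrays, as were 17.3% of all genes tested, and the 5 markers' median log2 ratio was 0.15 against 0.01 for all genes. Among these, Tert and Mex3a passed the filter only through GFPhi, being well above background on 4 of 4 GFPhi and 2 of 4 GFPlo arrays. The counts and the median are therefore not independent of the filter. When both RNAs had to stand well above background, Hopx (0.15), Lrig1 (0.76) and Msi1 (-0.12) remained. With each array centred on its median in place of loess, 1 marker, Mex3a, was higher on all 4 sort arrays, against 3.78% of all genes, and with processed signals Tert was not. Of the 6 tested in the deletion, 1 had a mean above 0 and 5 below, where 49.7% of all genes were above and 50.3% below. Of these, 3 were lower in deleted epithelium on all 4 arrays, as were 12.9% of all genes tested, with a median of -0.24 against 0. With median centring 1 marker, again Mex3a, was lower on all 4, against 2.80% of all genes.

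**Figure D1:**
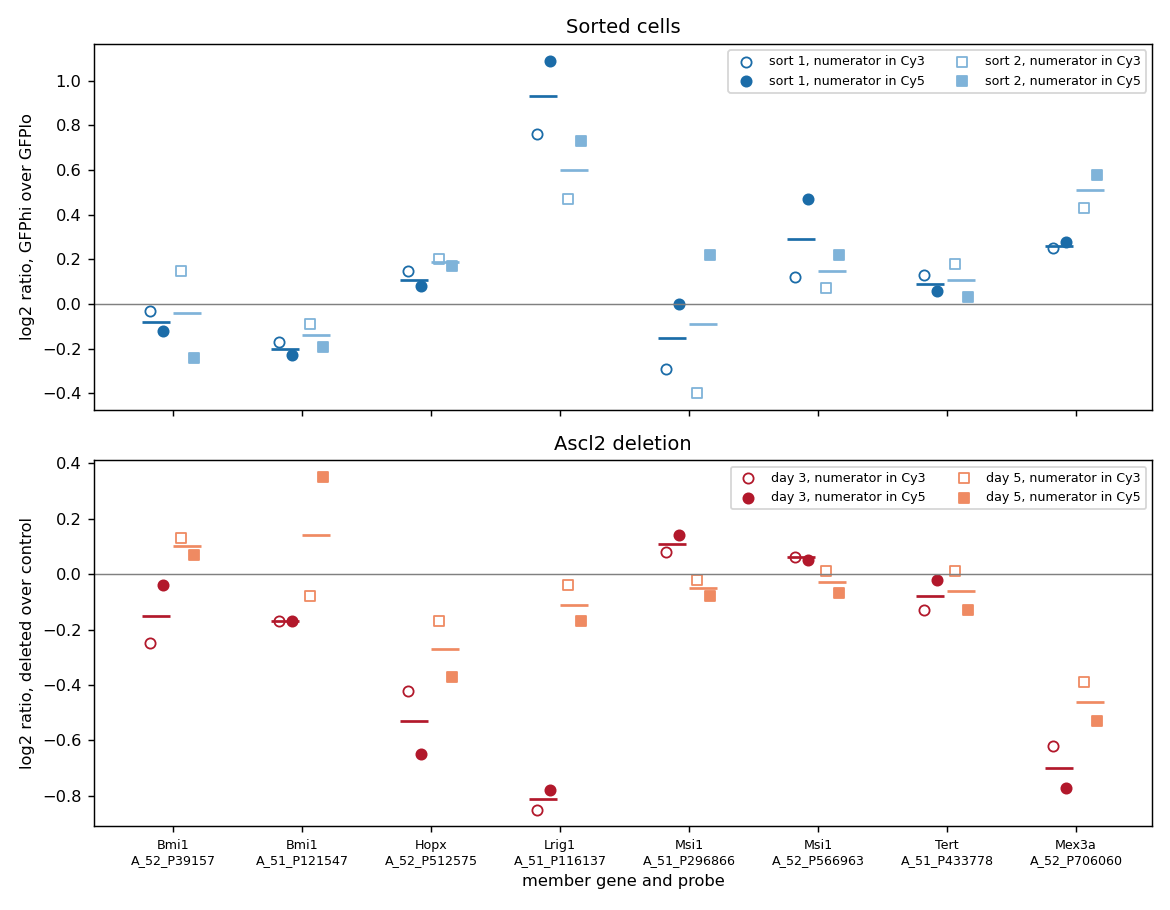
Log2 ratio of every marker probe on each of the 8 arrays, for GFPhi over GFPlo (top) and for Ascl2-deleted over control epithelium (bottom). Points are single arrays, open where the numerator RNA was in Cy3 and filled where it was in Cy5, and short lines average both arrays of a pair. Lrig1, Hopx and Mex3a lie above 0 on all sort arrays and below 0 on all deletion arrays. The arrays of the 4 Bmi1 and Msi1 probes range from -0.40 to 0.47.

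Lrig1 encodes a transmembrane protein that dampens signalling of the ErbB family of growth factor receptors. It is read by probe A_51_P116137, placed in mouse build mm8 on chromosome 6 (94570150 to 94570209, minus strand). The log2 ratio of GFPhi over GFPlo was 0.76 and 1.09 on the arrays of sort 1 and 0.47 and 0.73 on those of sort 2. All 4 arrays were higher for GFPhi. The mean of 0.76 ± 0.23 (SD, n = 2 sorts) corresponds to 1.70-fold, with a standard error of 0.21, a 95% interval of 0.22 to 1.31 and a limma adjusted p of 0.429. Of all genes tested, 0.707% had a higher ratio. With the sorts fitted alone the limma adjusted p was 0.00437, and 0.073 when the background was left as deposited. In the deletion, Lrig1 read -0.85 and -0.78 on the day 3 arrays and -0.17 and -0.04 on the day 5 arrays. Every deletion array was below 0 after loess. With median centring and the deleted RNA in Cy3, Lrig1 read -1.5 on day 3 and -0.66 on day 5. With that RNA in Cy5 it read -0.42 on day 3 and 0.49 on day 5. Single arrays of the days thus overlapped, but within each dye day 5 was higher. After loess the mean over both days was -0.46 ± 0.50 (SD, n = 2 RNA pairs; limma adjusted p = 0.550).

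The effect on Lrig1 differed between the days, by 0.71 (day 5 minus day 3, standard error 0.20, limma adjusted p = 0.041), where 27% of the 10332 genes tested were called. This call, too, rests on the replacement of outlying backgrounds. With the background as deposited the difference was 0.70 (limma adjusted p = 0.0869), with the scanner's processed signals 0.65 (0.182) and in the authors' deposited ratios 0.70 (0.133), so that none of these passed. The spread of this test comes from the sorts, since each day has 1 RNA pair. Day 3 on its own, with the same spread, gave Lrig1 -0.81 (limma adjusted p = 0.00245, and 0.0222 with the background as deposited), a day on which 20.5% of genes were called as lower. Day 5 on its own gave -0.11 (0.741), where 5.3% were.

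The paralogs of Lrig1 lay closer to 0 in the sorts. Lrig2 had a mean log2 ratio of 0.20 (limma adjusted p = 0.907) and Lrig3 one of 0.08 (0.949). In the deletion Lrig2 was at 0.30 on day 3 and -0.41 on day 5, a day difference of -0.71 (limma adjusted p = 0.0209) of opposite sign to that of Lrig1. Among the 16 ErbB receptors, ligands and Lrig paralogs, 10 were tested in the sorts, with 7 above and 3 below 0 and a median of 0.06, and 15 in the deletion, with 8 above and 7 below 0 and a median of 0.06. None passed the test. In the deletion the smallest unadjusted p belonged to the ligand Egf, with -0.39 on day 3 and -0.51 on day 5, and next to the ligand Hbegf, with 0.72 and 0.32. In the sorts it belonged to the ligand Nrg4, with 0.46 and 0.37.

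Hopx encodes a small homeodomain protein that does not bind DNA itself and acts through partner proteins. It is read by probe A_52_P512575 (mm8, chromosome 5, 78162210 to 78162269, minus strand). In the sorts Hopx read 0.15 and 0.08 in sort 1 and 0.20 and 0.17 in sort 2. All 4 values were above 0 and small, with a mean of 0.15 ± 0.0507 (SD, n = 2 sorts), a 95% interval of -0.18 to 0.48 and a limma adjusted p of 0.878. In deleted epithelium it read -0.42 and -0.65 on day 3 and -0.37 and -0.17 on day 5. All 4 arrays were below 0, averaging -0.40 ± 0.185 (SD, n = 2 RNA pairs), or 1.32-fold lower than control (limma adjusted p = 0.482). Day 3 on its own gave -0.53 and day 5 on its own -0.27, and a single day has no spread of its own. With the spread of the sorts, as used for Lrig1, Hopx was also called as lower on day 3 and not on day 5. The day 3 call thus does not set Lrig1 apart from Hopx, and it rests on 1 RNA pair. The difference of 0.26 between days did not pass the limma test. Of 4 partners of Hopx on the list, Gata4, Gata6, Srf and Hdac2, all were tested in the deletion, none passed, and the largest mean was that of Hdac2, at -0.22.

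Bmi1 encodes a ring finger subunit of Polycomb repressive complex 1, which keeps genes silent, among them cell cycle inhibitors. It has 2 probes, A_52_P39157 on chromosome 2 at 18604114 to 18604173 and A_51_P121547 at 18601433 to 18601492, both on the plus strand in mm8. Neither could be measured well in the sorted cells. The brighter probe, A_52_P39157, was well above background on 1 of 4 GFPhi and 1 of 4 GFPlo arrays, with ratios of -0.03, -0.12, 0.15 and -0.24. A_51_P121547 was so on 0 GFPhi and 2 GFPlo arrays, with ratios of -0.17, -0.23, -0.09 and -0.19, so no fold is given. In the epithelium both probes were well above background on all arrays. A_52_P39157 read -0.25 and -0.04 on day 3 and 0.07 and 0.13 on day 5, on opposite sides of 0. This averaged to -0.02 ± 0.176 (SD, n = 2 RNA pairs), with a 95% interval of -0.32 to 0.27 (limma adjusted p = 0.946). A_51_P121547 read -0.17 and -0.17 on day 3 and 0.35 and -0.08 on day 5, also with a mean of -0.02.

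The other subunits of Polycomb repressive complex 1 gave small ratios as well. Of 19 on the list, 16 were tested in the sorts, with 12 above and 4 below 0 and a median of 0.07, and 17 in the deletion, with 6 above and 11 below 0 and a median of -0.07. None passed. Cbx6 read 0.42 and 0.50 and Cbx2 0.24 and 0.44 in the 2 sorts, and Cbx7 read -0.43 and -0.31 on the 2 deletion days; all are chromobox subunits. Pcgf2, the closest paralog of Bmi1, had 0.12 and 0.01 in the sorts. Of 11 genes of Polycomb repressive complex 2, 8 were tested in the sorts and 11 in the deletion, with medians of 0 and -0.10 and none passing. The list of cell cycle inhibitors repressed by Bmi1 and of p53 pathway genes had 5 of 7 genes tested in the sorts, with 2 above and 3 below 0, a median of -0.72 and none passing. In it the inhibitor Cdkn2b read -1.04 and -1.15, Cdkn1c -0.87 and -1.14, and Cdkn1a -0.84 and -0.61. In the deletion 6 were tested, with 4 above and 2 below 0, a median of 0.30 and none passing. Cdkn2b read 0.64 and 0.21, Cdkn1a 0.82 and 0.05 and Cdkn1c -0.10 and -0.36 on the 2 days.

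Msi1 encodes Musashi-1, an RNA-binding protein that represses translation of targets such as Numb. Its 2 probes disagreed in sign in the sorts. A_51_P296866 (mm8, chromosome 5, 115715020 to 115715079, plus strand) read -0.29 and 0 in sort 1 and -0.40 and 0.22 in sort 2. The 2 arrays of a sort thus differed more than the sorts did, and the mean was -0.12 ± 0.0383 (SD, n = 2 sorts; limma adjusted p = 0.905). A_52_P566963, at 115709119 to 115709178, read 0.12, 0.47, 0.07 and 0.22, and was well above background on 3 of 4 GFPhi and 0 of 4 GFPlo arrays, so no fold is given. In the deletion A_51_P296866 read 0.08 and 0.14 on day 3 and -0.08 and -0.02 on day 5, a mean of 0.03 with a 95% interval of -0.24 to 0.30 (limma adjusted p = 0.922). The paralog Msi2 had means of -0.05 in the sorts and -0.14 in the deletion, and Numb read 0.59 on day 3 and -0.10 on day 5; none passed.

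Mex3a encodes an RNA-binding protein with KH domains and a ring finger. It is read by probe A_52_P706060 (mm8, chromosome 3, 88627173 to 88627232, plus strand). The log2 ratio of GFPhi over GFPlo was 0.25 and 0.28 in sort 1 and 0.43 and 0.58 in sort 2, above 0 on all 4 arrays. The mean was 0.39 ± 0.171 (SD, n = 2 sorts) or 1.31-fold, with a 95% interval of 0.04 to 0.73 and a limma adjusted p of 0.507; with the sorts fitted alone that p was 0.0377, and 0.413 with the background as deposited, where the mean was 0.16. In the deletion Mex3a read -0.62 and -0.77 on day 3 and -0.53 and -0.39 on day 5, below 0 on all 4 arrays. Averaged over the days, Mex3a stood at -0.58 ± 0.168 (SD, n = 2 RNA pairs), or 1.49-fold lower than control, with a 95% interval of -0.91 to -0.25 and a limma adjusted p of 0.421. Of all genes tested, 97.6% had a higher ratio. Each day on its own gave -0.70 on day 3 and -0.46 on day 5, and a single day has no spread of its own. With the spread of the sorts, Mex3a was called as lower on day 3, as Lrig1 and Hopx were, with and without the background replacement. On day 5 Mex3a was called only with that replacement. With the RNA pair as a random block Mex3a passed (limma adjusted p = 0.0299), as did 321 of 15779 genes in all. With the background as deposited the random block called 244 genes, and Mex3a did not pass (limma adjusted p = 0.0505).

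The size of the Mex3a ratio depended on the signal used. The probe is dim: it was well above background on 4 of 4 GFPhi and 2 of 4 GFPlo arrays, and its foreground was 1.44 to 3.66 times the local background in the sorts and 2.01 to 5.74 times in the epithelium. The scanner's processed signals gave 1.30 and 1.20 in sort 1, 0.75 and 0.88 in sort 2, -1.18 and -1.31 on day 3 and -0.81 and -0.58 on day 5, means of 1.03 and -0.97. Among the paralogs, Mex3c had a mean of -0.14 in the sorts, and Mex3b, Mex3c and Mex3d had 0.27, 0.02 and -0.09 in the deletion, with none passing the test.

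Tert encodes the reverse transcriptase subunit of telomerase. It is read by probe A_51_P433778 (mm8, chromosome 13, 74114983 to 74115042, plus strand). The sort 1 arrays gave Tert 0.13 and 0.06 and the sort 2 arrays 0.18 and 0.03, averaging 0.10 ± 0.00857 (SD, n = 2 sorts; limma adjusted p = 0.924), with the probe well above background on 4 of 4 GFPhi and 2 of 4 GFPlo arrays. In the deletion it read -0.13 and -0.02 on day 3 and -0.13 and 0.01 on day 5, a mean of -0.07 with a 95% interval of -0.31 to 0.18 (limma adjusted p = 0.783). These ratios are small beside those of Lrig1 and Mex3a, and intervals this wide do not show that Tert was equal. Of 13 genes of the telomerase complex and of shelterin, the complex that caps telomeres, 8 were tested in the sorts, with a median of 0.08, and 12 in the deletion, with 4 above and 8 below 0 and a median of -0.30; none passed. Terf2, a shelterin protein, read -0.46 and -0.25 on the 2 days and Pot1a, another, -0.34 and -0.43, while the telomerase RNA-binding proteins Dkc1 and Gar1 read -0.94 and 0.14, and -1.24 and 0.10.

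The level of each probe was also set out over the 8 RNAs, as normalized log2 intensity, averaged over 2 arrays and given with the distance of each array from that average. Lrig1 was highest in GFPhi of sort 2 (12.75 ± 0.02) and of sort 1 (12.24 ± 0.14), then in GFPlo of sort 2 (12.15 ± 0.12). It was lowest in the deleted epithelium of day 3 (10.31 ± 0.01), below its own control (11.12 ± 0.03). GFPhi of sort 1 and GFPlo of sort 2 did not differ beyond the arrays' spread. Mex3a was highest in GFPhi of sort 2 (8.79 ± 0.09) and GFPlo of sort 2 (8.29 ± 0.01), followed by GFPhi of sort 1 (7.65 ± 0.18) and the day 5 control (7.61 ± 0.10), which overlapped, and was lowest in the deleted epithelium of day 3 (6.55 ± 0.08). Hopx covered a narrower range, from 12.65 ± 0.05 in GFPhi of sort 2 down to 11.72 ± 0.10 in the deleted epithelium of day 3. Bmi1 by A_52_P39157 was at 8.18 to 8.75 in the 4 epithelial RNAs and at 6.24 to 6.98 in the 4 sorted RNAs. Msi1 by A_51_P296866 was likewise at 11.13 to 11.26 in epithelium and at 9.19 to 9.82 in sorted cells. Tert, whose probe is dim in the sorts, stayed between 7.07 and 7.32. Sorted cells and epithelium were on different slides with different shares of spots above background, so a gap between them cannot be told apart from the slides.

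**Figure D2:**
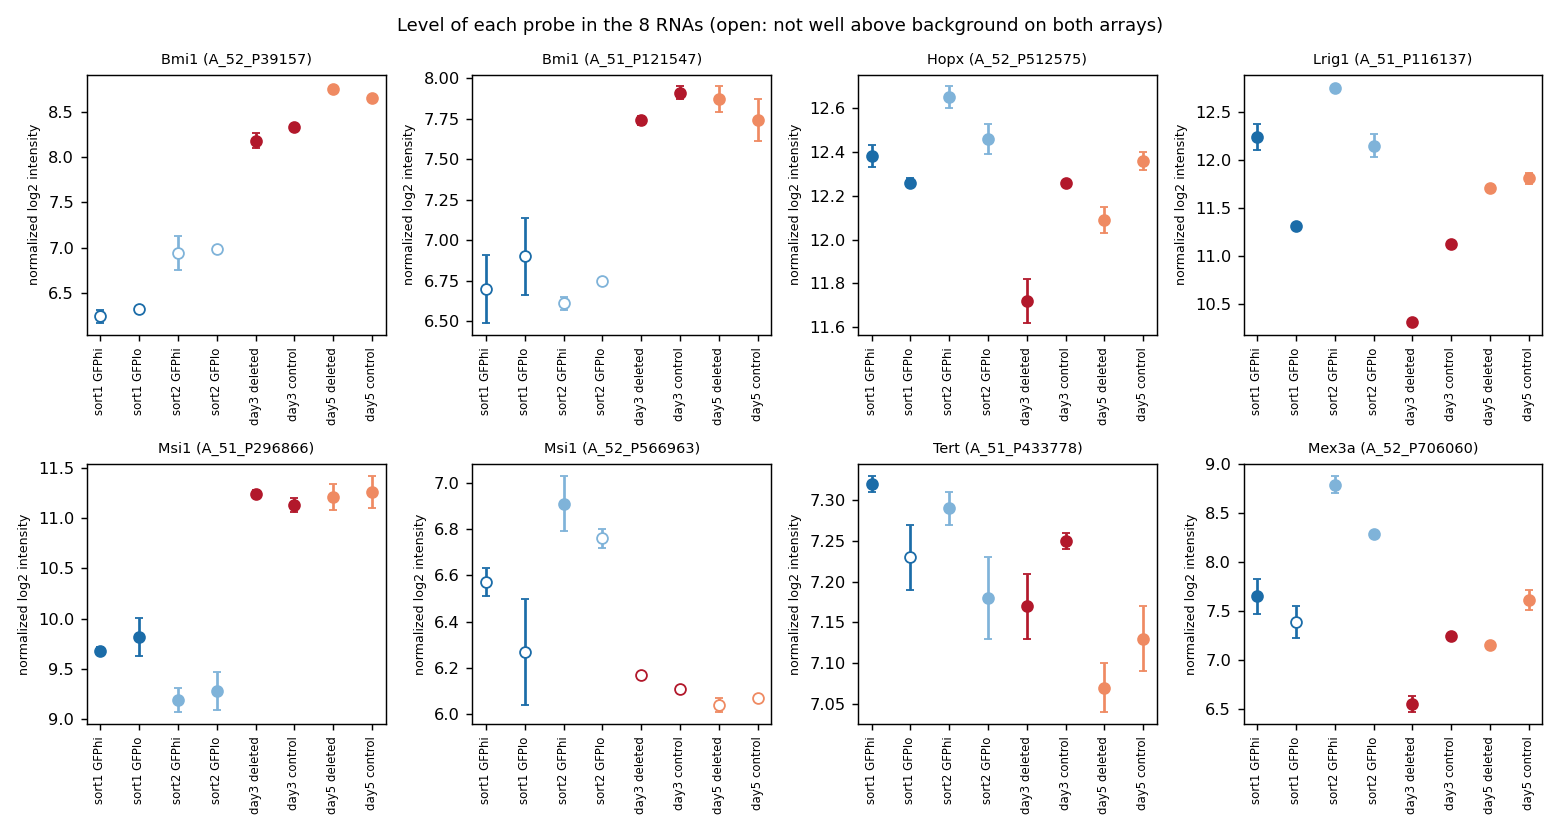
Normalized log2 intensity of each marker probe in the 8 RNAs, 1 panel per probe with its own axis. Points are means of the 2 dye-swapped arrays, bars reach to the single arrays, and open points were not well above background on both arrays. Lrig1, Hopx and Mex3a are lowest in the deleted epithelium of day 3, and the Bmi1 probes are lower in all sorted RNAs than in epithelium.

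The markers with lower ratios in the deletion were set beside genes of known cell types. Crypt base stem cell genes had 19 tested in the deletion, 17 below 0 with a median of -0.62, and 18 in the sorts, 17 above 0 with a median of 0.94; none passed. Cell cycle genes differed between the days: all 30 were below 0 on day 3, with values from -1.71 to -0.79, and the range on day 5 was -0.31 to 0.73, with 26 of 29 called in the day difference. Of all 10332 genes tested in the day difference 27% were called. Of 18 crypt base stem cell genes 8 were called, with a median of 0.48 over the 18. Those with the smallest p were Nrn1, at 0.03 on day 3 and -1.12 on day 5, Cdca7, at -1.21 and -0.11, Prom1, at -0.42 and 0.51, and the receptor Ephb3, at -1.18 and -0.41, so Nrn1 went the other way from these 3. Lrig1, from -0.81 to -0.11, had a day difference of the same sign as the medians of both lists. Mex3a and Hopx had smaller day differences that did not pass. Paneth cell genes were also low on day 3, with a median of -1.40, and -0.12 on day 5. Enterocyte and tuft cell genes had the opposite order, the enterocyte median being 0.67 at day 3 against -0.43 at day 5, and the tuft cell median 0.67 against -0.51. Goblet cell medians were 0.41 and -0.09. Enteroendocrine genes were mixed, with medians of 0.05 and -0.19 and 5 of 13 day differences above 0. In the sorts all 9 tested goblet cell genes were below 0, with a median of -1.46, as were all 13 enteroendocrine genes, with a median of -1.51; none passed. The part of these cells in the markers' ratios was not tested. In bulk RNA, fewer cells of a type and less RNA per cell cannot be told apart.

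RNA of cells outside the epithelium also differed within the deletion pairs. On day 5, 8 of 9 tested fibroblast and smooth muscle genes were above 0, from -0.09 up to 5.27, with Col1a2 at 4.89 and Dcn at 4.59, against -0.74 and -0.31 on day 3. On day 3, 9 of 10 tested T cell and intraepithelial lymphocyte genes were above 0, with a median of 1.02, against -0.04 on day 5. All 4 tested B and plasma cell genes were above 0 on both days. Of 5 endothelial genes 1 was tested. The part of these cells in the ratios of Lrig1, Hopx and Mex3a was not tested.

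**Figure D3:**
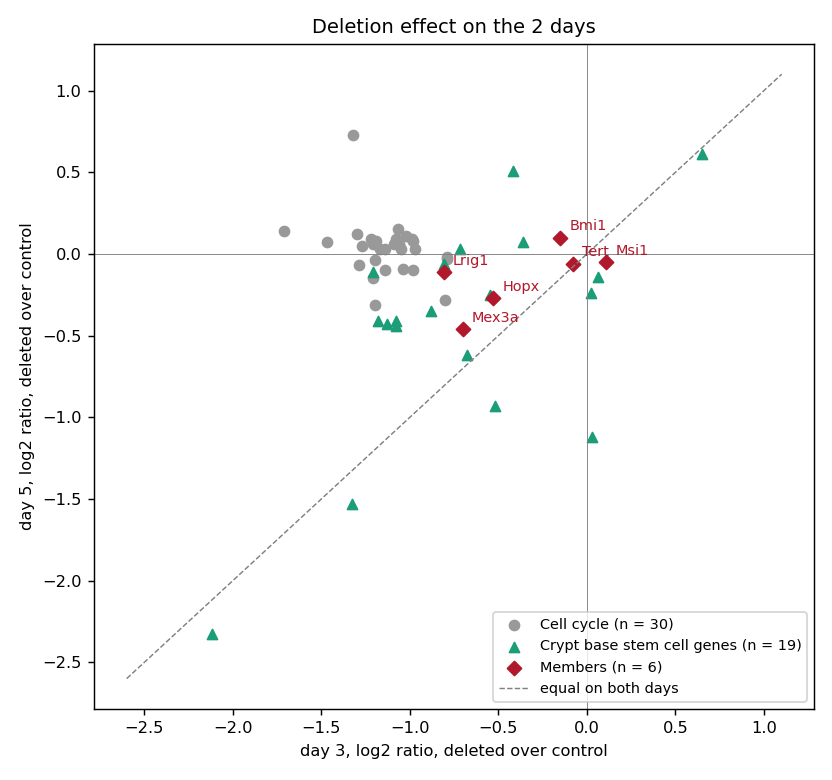
Log2 ratio of deleted over control epithelium on day 3 (horizontal) and day 5 (vertical) for the 6 markers, 19 crypt base stem cell genes and 30 cell cycle genes. Each point is 1 gene, averaged over 2 dye-swapped arrays, and the dashed line marks equal ratios. Cell cycle genes lie at -0.79 or lower on day 3 and around 0 on day 5; Lrig1 is at -0.81 and -0.11, while Mex3a, at -0.70 and -0.46, lies nearer the line.

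Other genes proposed as reserve or facultative stem cell markers did not share 1 direction. Of 8 on that list, 6 were tested in the sorts, with 4 above 0 and a median of 0.29, and 8 in the deletion, with 3 above and 5 below 0 and a median of -0.08; none passed. Clu, which encodes clusterin and marks cells that appear in the damaged epithelium, read 2.42 on day 3 and 2.73 on day 5, a mean 5.95-fold higher in deleted epithelium (limma adjusted p = 0.131), and 0.57 and 0.74 in the sorts. Sox9, a transcription factor of crypt cells, read 0.84 and 0.94 in the sorts and -0.81 and -0.19 in the deletion. Krt15, a keratin, read -0.64 and -0.51 in the deletion, and Krt19, another, -0.64 and -0.43 in the sorts.

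The genes most like a marker were found over the 4 RNA pairs among 9012 named genes tested in both comparisons, by the root mean square difference of their log2 ratios. For Lrig1 they were Tmem131l (0.155), Hunk (0.157) and Cdc42ep1 (0.158); Hunk, for instance, read 0.93, 0.86, -0.66 and -0.01 in sort 1, sort 2, day 3 and day 5. For Mex3a they were Spata24 (0.103), Xylb (0.109) and Txndc16 (0.121). For Hopx they were Gemin8 (0.0163), Tfam (0.0383) and Alad (0.0476). The nearest genes to Lrig1 were thus farther from it than those of Hopx. In the sorts 0.707% of genes had a higher ratio than Lrig1 and 21.8% a higher ratio than Hopx, so fewer genes lay in the range of Lrig1. The part of this in the distances was not tested. For Msi1 they were Cldn14, Mrps36 and Lrrc38, all within 0.0246 and with ratios close to 0.

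Promoters are shown for the 3 markers that were lower in deleted epithelium on all 4 arrays after loess, since Ascl2 belongs to a family of factors that bind the E-box, CANNTG. They come from RefSeq on assembly GRCm38.p6, which held 5 of the 6 markers, and run from 250 bases before to 50 bases after the start, 5′ to 3′ on the strand of the gene, with E-boxes in capitals. Lrig1 is at chr6:94700096-94700395 and Hopx at chr5:77115074-77115373 and, for its other start, chr5:77095218-77095517, all on the minus strand; Mex3a is at chr3:88531696-88531995 on the plus strand.
Lrig1: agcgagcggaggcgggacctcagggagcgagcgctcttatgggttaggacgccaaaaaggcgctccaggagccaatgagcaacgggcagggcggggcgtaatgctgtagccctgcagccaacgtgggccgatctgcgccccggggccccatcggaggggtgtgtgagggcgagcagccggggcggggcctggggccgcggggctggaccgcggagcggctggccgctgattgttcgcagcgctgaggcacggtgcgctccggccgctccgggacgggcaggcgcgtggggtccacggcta
Mex3a: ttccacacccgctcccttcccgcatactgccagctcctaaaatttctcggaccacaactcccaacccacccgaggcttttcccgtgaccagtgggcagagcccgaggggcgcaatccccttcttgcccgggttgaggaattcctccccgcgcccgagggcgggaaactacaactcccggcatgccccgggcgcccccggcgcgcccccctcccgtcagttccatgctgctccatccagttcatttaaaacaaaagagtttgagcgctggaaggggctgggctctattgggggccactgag
Hopx, first start: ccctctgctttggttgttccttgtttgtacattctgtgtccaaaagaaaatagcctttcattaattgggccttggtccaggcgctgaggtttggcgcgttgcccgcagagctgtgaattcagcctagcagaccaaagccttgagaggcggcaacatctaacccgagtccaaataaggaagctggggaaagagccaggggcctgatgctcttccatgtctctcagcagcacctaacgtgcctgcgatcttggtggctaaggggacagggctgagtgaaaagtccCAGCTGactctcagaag
Hopx, other start: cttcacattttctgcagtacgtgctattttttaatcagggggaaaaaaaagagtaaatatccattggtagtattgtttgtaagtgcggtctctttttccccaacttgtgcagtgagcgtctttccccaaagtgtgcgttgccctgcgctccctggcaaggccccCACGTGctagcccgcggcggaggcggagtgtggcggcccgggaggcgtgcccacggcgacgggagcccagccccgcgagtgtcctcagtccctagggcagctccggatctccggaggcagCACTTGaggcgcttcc

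Searched on both strands, CANNTG was absent from these windows of Lrig1 and Mex3a and present in both of Hopx, once as CAGCTG at the first start. It was present in 72.3% of 32851 RefSeq promoters of the same length, and CAGCTG, which is 1 form of CANNTG, in 16.3%. The TCF motifs CTTTGAA and CTTTGAT were in none of the windows of these 5 markers, and in 5.14% and 3.73% of all promoters. These are letters in a short window, and sites outside it were not searched.

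**Figure D4:**
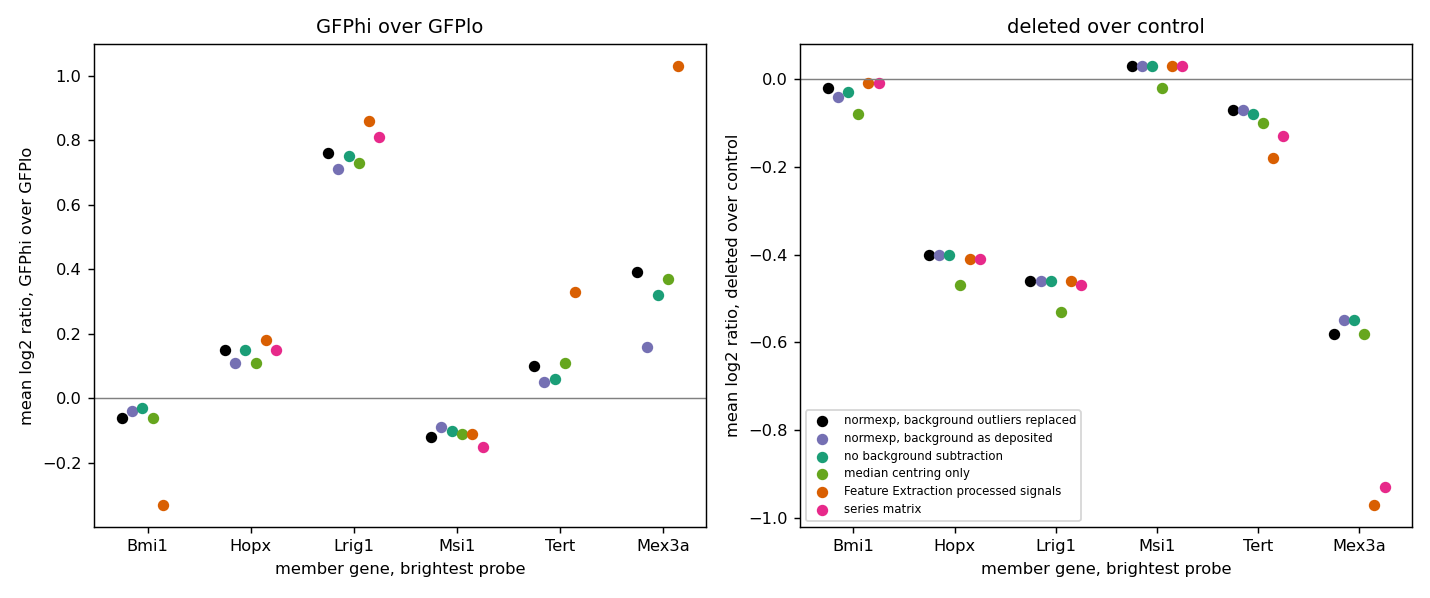
Mean log2 ratio of each marker's brightest probe in the sorts (left) and the deletion (right) under 6 ways of deriving the ratio. Each point is the mean of 2 RNA pairs, and a missing point has no value in that source. Lrig1 and Hopx vary little, while Mex3a runs from 0.16 to 1.03 in the sorts and from -0.97 to -0.55 in the deletion.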

How the data were processed

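Spot intensity values on a linear scale (mean foreground and median local background) are those the authors deposited from Agilent Feature Extraction, per the file headers. Log2 ratios in the deposited series matrix, turned to the same direction, correlated with the scanner's log10 ratios at 0.964 or more; whether the authors centred them is unknown. Background was corrected with normexp (offset 50), ratios were normalized by loess within each array with control spots at weight 0, outlier spots were left out, and spots of a probe were averaged (41174 probes). A gene is given by its brightest probe. The 4 RNA pairs were fitted in limma 3.58.1 (R 4.3.3), with Benjamini-Hochberg adjustment and a threshold of 0.05, two-sided; the scripts were tested on simulated data, where the sorts fitted alone called more unchanged genes than the threshold allows. Positions are those of mm8, per the file headers. Pools and extracts are the replicates. In the reported fit of each comparison, p-values measure the spread between the sorts together with that between the deletion days. In the day difference and the single-day fits they measure the spread between the sorts alone. No spread between extracts of the same deletion day was measured.

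The members, lists and tests were chosen with earlier results of these data known. Lists give up to 4 genes with the smallest unadjusted p, besides paralogs, Lgr5, Ascl2, Olfm4 and the 3 genes most like each marker; those most like Tert are not reported here. The following 3 choices were made after values of the markers had been seen. A local background above 2 times the channel's median (at most 75 spots a channel) was replaced by that median, because a few such spots set the normexp fit of sort 2, whose sigma was 314 to 739 as deposited and 1.91 to 3.13 afterwards; 2 was the only multiple tried, and the calls of Lrig1 and Mex3a in the sorts fitted alone, of Lrig1 in the day difference and of Mex3a on day 5 and with the random block depend on this step. A probe with duplicate spots counted as well above background only if all its spots were, where a looser rule had been used first. The day difference was run over genes tested in both comparisons; it had first been run over all genes tested in the deletion. Alternatives were other background, normalization, filter, probe and fit choices, each dye alone and each replicate left out.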

Additional observations from a re-analysis of the deposited data

Results flagged for a closer look

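The difference between day 5 and day 3 of the deletion effect was 0.71 for Lrig1 and passed the limma test in the form reported (adjusted p = 0.041), though under none of its 3 alternatives. For Bmi1, by A_52_P39157, both arrays of day 3 were below 0 and both of day 5 above it. That difference of 0.25 was not tested because the probe is dim in the sorts. By the other Bmi1 probe, A_51_P121547, the day 5 arrays differed in sign, at 0.35 and -0.08. With median centring the arrays of each day differed in sign for A_52_P39157, and also for the brighter Msi1 probe. For Msi1, by A_51_P296866, both arrays of day 3 were above 0 and both of day 5 below it, a difference of -0.15 that did not pass the limma test (adjusted p = 0.527).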

How the results depend on the processing

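In the sorts the number of genes called, 0 as reported, was 58 with processed signals, 32 with the authors' deposited ratios, 201 with the RNA pair as a random block, 8 with GFPhi in Cy5 only and 1326 with the sorts fitted alone, against 27 and 77 for the random block and the sorts alone when the background was left as deposited; leaving out a replicate gave 0 to 1326, the latter without either deletion day, since the spread then comes from the sorts. In the deletion, 0 as reported, it was 321 with the random block (244 with the background as deposited) and 2 with the deleted RNA in Cy5 only, and leaving out a replicate gave 1992 (without day 3) to 5990 (without day 5), or 1214 to 6133 with the background as deposited. The day difference, 2790 as reported, gave 2475 with the background as deposited, 306 with processed signals and 679 with the deposited ratios; the cause was not tested. The background replacement, added after seeing the data, took past the threshold Lrig1's day difference (limma adjusted p = 0.041, against 0.0869 without it), Lrig1 (0.00437 against 0.073) and Mex3a (0.0377 against 0.413) in the sorts fitted alone, and Mex3a on day 5 (0.0452 against 0.104) and with the random block (0.0299 against 0.0505). Lrig1's day difference did not pass with processed signals or the deposited ratios either.

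Lrig1, Hopx, Mex3a and Tert kept their direction under every alternative run in the sorts and in the deletion, with ranges for Lrig1 of 0.60 to 0.93 and -0.81 to -0.11 and for Mex3a of 0.16 to 1.03 and -0.97 to -0.40. Reversed were Msi1 in the sorts with GFPhi in Cy5 only (0.11), Msi1 in the deletion with median centring (-0.02) and without day 3 (-0.05), Bmi1 in the deletion with the deleted RNA in Cy5 only (0.01) and without day 3 (0.10; leaving out either day, over both background versions, gave -0.15 to 0.10), both also without day 3 with the background as deposited (-0.05 and 0.07), and Tert in the day difference with processed signals (-0.02). The deposited ratios hold no value of Tert in the sorts and none of Mex3a in sort 1, and Mex3a and Tert were not tested in the sorts under the stricter filter. Under the 5 other ways of deriving the ratios, list medians near 0 changed sign: the Mex3 paralogs (-0.14 to 0.04 in the sorts, -0.05 to 0.21 in the deletion), the Hopx partners in the sorts (-0.02 to 0.11) and Msi2 and Numb (-0.05 to 0.03 in the sorts, -0.01 to 0.06 in the deletion). The ErbB list in the deletion reached 0 with median centring. A random block for the day difference and a slide or scan block could not be fitted, since each pair is its own slide. Signal over background limits Bmi1, Tert, Mex3a and the second Msi1 probe in the sorts. Every fit is on ratios within an array, so the RNAs of a pair are already paired.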
